A study of Homo sapiens with 12 samples.

Results

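The immunoglobulin heavy and light chain genes were taken as the genes of the deposited table whose name begins with the symbol of a heavy, kappa or lambda variable, joining or constant gene, together with IGLL5. At least 1 read over the 12 libraries was required, which left 45 of the 24675 gene IDs with a read. They comprise 8 heavy constant genes, 6 heavy variable genes, 1 kappa constant gene, 2 kappa variable and 1 kappa joining gene, 6 lambda constant, 14 lambda variable and 3 lambda joining genes, IGLL5, 2 variable genes outside the loci (orphons) and IGHMBP2. IGHMBP2, on chromosome 11, is a helicase that fits the pattern by name alone, so it was left out of every immunoglobulin sum, and 44 members remained in those sums.

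RNA came from 697(EU3) cells, a human B-cell leukemia line, sorted for high aldehyde dehydrogenase activity (ALDH+). SH2 cells carry an inducible hairpin that targets IGF2BP1, which encodes an RNA-binding protein; doxycycline switches the hairpin on together with eGFP. There were 4 doxycycline-treated SH2 libraries (GFP-sorted after treatment) and 4 untreated SH2 libraries, from sets 1 to 4, and 2 doxycycline-treated and 2 untreated control libraries, from sets 2 and 4. Each set was a separate ALDH+ sort with its own doxycycline treatment. The labels do not say whether the control libraries carry the scrambled shRNA named in the protocol, and they give no dose or time of doxycycline. By the labels, all groups share the line and the ALDH+ sort.

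An antibody chain is assembled in each developing B cell by joining variable, diversity (heavy chain only) and joining segments, and the joined segment is spliced to a constant gene. The heavy chain locus lies on chromosome 14 and its constant genes set the class, beginning with IgM (IGHM) and IgD (IGHD). The light chain comes from the kappa locus on chromosome 2 or the lambda locus on chromosome 22, and a B cell usually keeps a single light chain type, with kappa rearranged before lambda. These libraries capture the 3′ ends of poly(A) RNA, and in a rearranged transcript the constant gene holds that end.

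The libraries held 2210291 to 3370952 reads assigned to genes. IGF2BP1, the shRNA target, was at 6.28, 14.8, 25.0 and 16.2 CPM (counts per 1000000 assigned reads, library sizes scaled by TMM) in treated SH2 libraries of sets 1 to 4 and at 21.7, 30.5, 39.2 and 32.9 CPM in untreated ones. Its log2 fold change was -0.99 ± 0.43 (SE, edgeR fit without the set, adjusted p = 0.983), and its level was lower in each of the 4 sets. Control libraries held 0.961 and 0.382 CPM with doxycycline and 1.42 and 0 CPM without it (sets 2 and 4), and SH2 cells were higher by 5.52 ± 0.84 on the log2 scale without doxycycline (edgeR, adjusted p = 0.000915). The stem cell marker CD34 had no read in the 8 SH2 libraries and 0 to 0.475 CPM in control libraries, with a read in 1 of the 4. The SH2 and control libraries differed in markers of other cells: 8 mature B markers summed to 46.5 to 114 CPM in SH2 and 1007 to 1303 CPM in control libraries. The 12 T-cell markers summed to 42.6 to 135 CPM in SH2 libraries, and in control libraries to 1943 (treated) and 1763 CPM (untreated) in set 2, against 86.7 and 183 CPM in set 4. CD2, CD5 and TRBC1 were at 0 in all SH2 libraries, but other T-cell markers were read in each of them. CD3G was at 20.9 to 85.2 CPM in SH2 libraries, TRBC2 at 3.37 to 37.1 and CD3D at 2.87 to 18.7 CPM. CD4 was at 2.46 to 17.5 and CD7 at 4.10 to 12.5 CPM there. In control set 4 CD3G was at 3.06 (treated) and 18.8 CPM (untreated), below each SH2 library. Of 10 myeloid markers, 8 were found by name, and these summed to 5.45 to 19.7 CPM in SH2 and 1.45 to 8.07 CPM in control libraries. The part of these markers in the results below was not tested. Whether the control libraries hold the same cells as the SH2 libraries was not tested, and a difference between the cells themselves cannot be told apart from other differences between SH2 and control. Calls that ended without both control libraries of set 2, an alternative chosen after seeing the data, are named beside each gene.

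The light chain sequences that separate the cells are shown first, from the GENCODE transcripts on GRCh38. IGKC (chr2:88857361-88857405, minus strand) and IGLC2 (chr22:22901251-22901295, plus strand) are shown at the end of their coding exon, because this gene holds the 3′ part of a light chain transcript; the capitals mark the codon of the cysteine that bonds the light chain to the heavy chain.
IGKC: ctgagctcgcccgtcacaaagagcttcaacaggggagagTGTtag
IGLC2: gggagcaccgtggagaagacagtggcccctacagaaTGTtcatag

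The lambda constant genes are near-copies, which bears on how far their counts can be told apart. The same 90 bases of their exons are shown for IGLC2 (chr22:22901098-22901187), IGLC3 (chr22:22906464-22906553) and IGLC7 (chr22:22922716-22922805), all on the plus strand. This stretch was picked because it holds the most differences from IGLC2, so it is not typical of the whole exon. In IGLC2 the capitals mark the bases at which IGLC3 or IGLC7 differs, and in IGLC3 and IGLC7 those that differ from IGLC2.
IGLC2: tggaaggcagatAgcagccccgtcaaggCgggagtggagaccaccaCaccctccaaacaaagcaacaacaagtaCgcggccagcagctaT
IGLC3: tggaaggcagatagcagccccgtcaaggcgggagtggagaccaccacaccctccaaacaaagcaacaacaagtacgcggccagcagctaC
IGLC7: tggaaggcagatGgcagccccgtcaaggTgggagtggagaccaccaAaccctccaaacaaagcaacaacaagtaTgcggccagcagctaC
Over the 317 bases of the coding exon, IGLC2 and IGLC3 differ at 3 bases and IGLC2 and IGLC7 at 13. Of all windows of 50 bases in each transcript, 66.1% of those of IGLC2, 67.1% of IGLC3 and 14.5% of IGLC7 also occur in another immunoglobulin transcript. For IGKC, IGHM, IGHD and IGLV6-57 that share was 0%. Reads that align to several places were left uncounted, per the count tables, and they made up 42.2% to 63.8% of the reads of a library. The counts of single lambda constant genes are therefore uncertain, and IGLC1, which shares 100% of its windows and lies within IGLL5, had no read.

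Immunoglobulin genes took 0.184% to 0.484% of the assigned reads in SH2 libraries and 0.270% to 0.425% in control libraries. Of the 45 members, 8 had at least 1000 reads over all libraries, 6 had at least 100 but under 1000, 7 had 10 to 99 and 24 had 1 to 9. A filter on low counts passed 14 of the 45, and the rest are described by their reads alone. Of these 14, 7 were called (edgeR, adjusted p under 0.05) in untreated SH2 against untreated control cells, where 7.84% of the 11968 genes tested were called. Of them 5 were higher, against 2.94% of all genes, and 2 lower, against 4.9%. With doxycycline in both, 8 were called, where 11.1% of all genes were, 6 of them higher, against 4.6% of all genes, and 2 lower, against 6.48%. Without both control libraries of set 2, 646 genes were called with doxycycline and 322 without, against 1326 and 938 with all libraries, so these background shares depend on those libraries. Since a member that is high in only 1 kind of cell passes the filter through that group, these counts are a description. In bulk RNA, fewer cells with a transcript and less transcript per cell cannot be told apart.

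**Figure D1:**
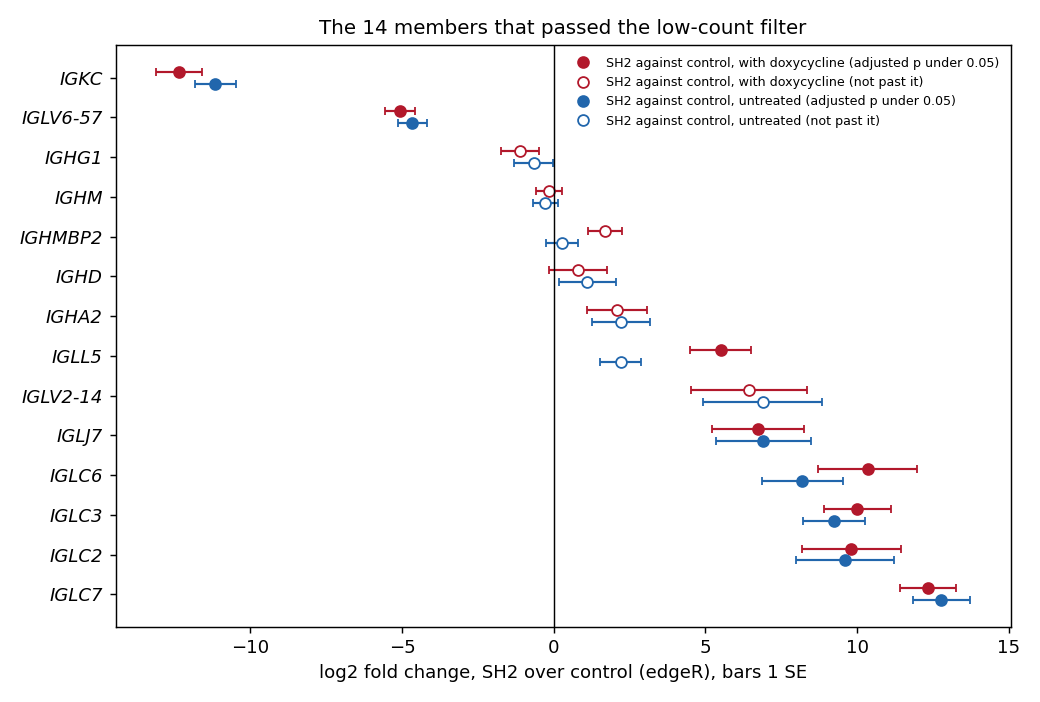
The log2 fold change of SH2 over control cells (x axis, edgeR, bars 1 SE) for the 14 members that passed the filter on low counts, with doxycycline in red and untreated in blue; filled points have an adjusted p under 0.05. IGKC and IGLV6-57 lie far to the left and the lambda constant genes far to the right, while IGHM lies near 0; fitted values of genes with no control read, such as IGLC7, depend on the prior count and are no bound.

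The light chain type differed between the cells: SH2 cells were read in the lambda constant genes and control cells in the kappa constant gene. IGKC, the only kappa constant gene (chr2:88857161-88857683, minus strand), was at 0.419, 0.380, 0 and 0 CPM in treated SH2 libraries and at 0, 0.297, 0 and 1.81 CPM in untreated ones (sets 1 to 4). Control libraries held 847 and 1505 CPM with doxycycline and 1271 and 1489 CPM without it (sets 2 and 4). All 8 SH2 libraries were below 2 CPM, and the groups did not overlap. How many of all genes were without overlap between SH2 and control libraries was not counted, here or for the genes below. The 8 SH2 libraries together held 9 IGKC reads, of which 6 were in the untreated library of set 4, and the 4 control libraries held 13379. The log2 difference, SH2 over control, was -11.14 ± 0.68 without doxycycline (SE, edgeR, adjusted p = 7.12e-07). With doxycycline, 2 SH2 reads gave an SH2 to control ratio of 0.000158, with a 95% interval of 1.91e-05 to 0.000571, and IGKC was called lower (edgeR, adjusted p = 9.59e-07). Without both control libraries of set 2, where the T-cell markers were high, the untreated difference was -11.26 (edgeR, adjusted p = 1.73e-05). Without the untreated SH2 library of set 4, which held 6 of the 9 reads, it was -13.10.

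Among all light chain reads, kappa reads made up at most 0.137% in any SH2 library (untreated set 4, exact binomial 95% interval 0.0502% to 0.297%), and 87.3 and 89.5% in treated and 85.1 and 95.3% in untreated control libraries. The SH2 libraries treated in sets 3 and 4 and untreated in sets 1 and 3 had no kappa read. Their depth allows shares of up to 0.0712%, 0.144%, 0.0863% and 0.0486% at a floor of 3 counts. The reads carry no molecular identifiers, so these limits and every interval here reflect counting error alone. Counted over constant genes alone, the kappa share was 99.7% to 99.9% in control libraries. The other light chain reads of the control libraries lay mostly in the variable gene IGLV6-57, with 1481 reads, against 19 in the lambda constant genes. These are shares of reads, not divided by gene length. Per kilobase of exon, the treated control libraries had a kappa share of 83.8%, though reads of 3′ ends need not scale with exon length. Kappa variable and joining genes were almost unread: IGKV1-37, IGKV2-29 and IGKJ5 had 4 reads in all, each in a control library.

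**Figure D2:**
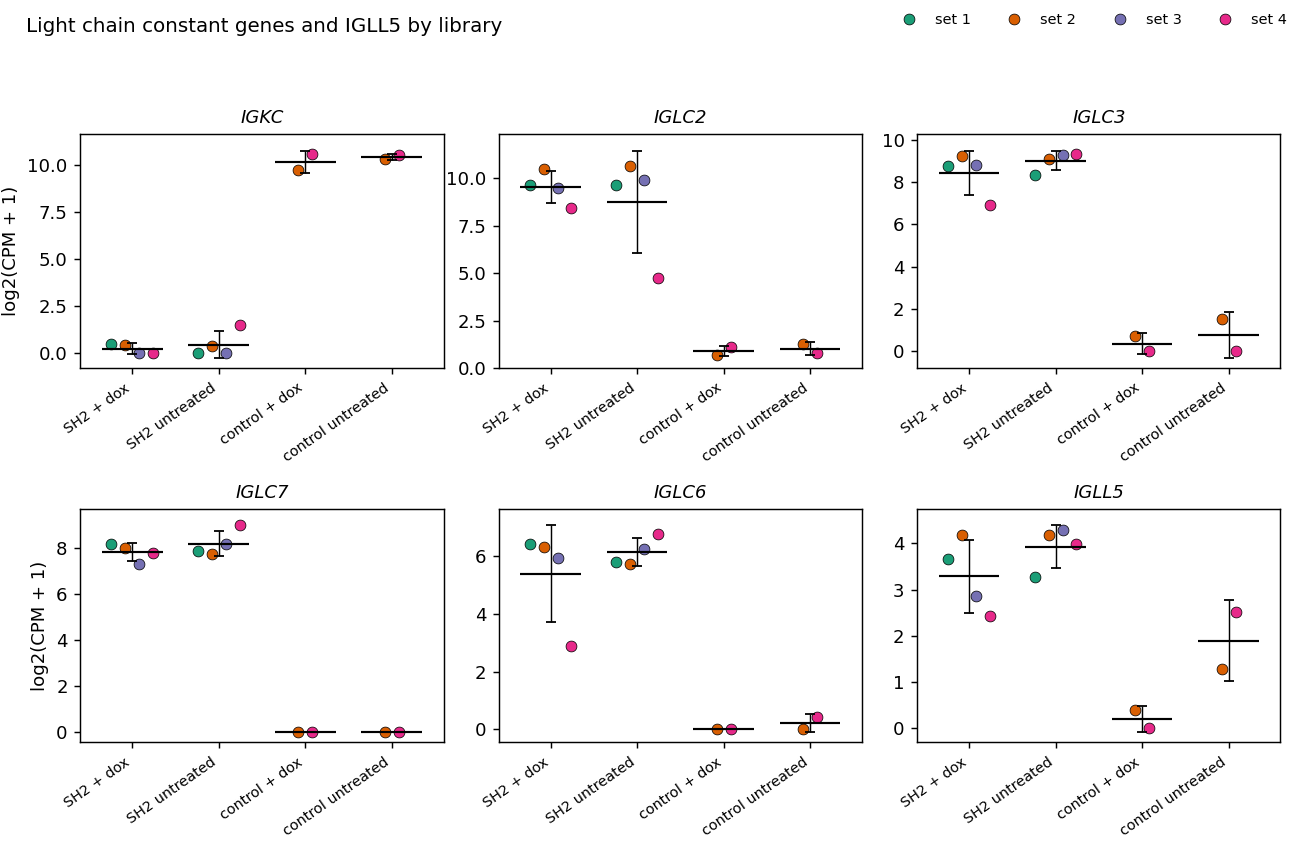
Log2(CPM + 1) per library (points, coloured by set) of the light chain constant genes and IGLL5 in treated SH2, untreated SH2, treated control and untreated control libraries; lines are means and bars SDs (n = 4, 4, 2 and 2). IGLC2, IGLC3 and IGLC7 are higher in the 8 SH2 libraries and IGKC in the 4 control libraries.

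The lambda constant genes had 38182 reads in the 8 SH2 libraries and 19 in the 4 control libraries. IGLC2 was at 811, 1445, 709.6 and 347 CPM in treated SH2 libraries and at 788, 1579, 975 and 25.9 CPM in untreated ones, against 0.641 and 1.15 CPM in treated and 1.42 and 0.723 CPM in untreated control libraries. The lowest SH2 library, untreated set 4, was still above each control library. The log2 difference was 9.81 ± 1.62 with doxycycline (edgeR, adjusted p = 0.00165) and 9.61 ± 1.61 without (adjusted p = 0.00214). Without the control libraries of set 2, the untreated difference was 10.10 and no longer passed the threshold (edgeR, adjusted p = 0.0576).

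IGLC3 was at 441, 609.8, 441 and 119 CPM in treated and 323, 548, 615 and 644 CPM in untreated SH2 libraries, against 0.641 and 0 CPM in treated and 1.90 and 0 CPM in untreated control libraries. The log2 difference without doxycycline was 9.23 ± 1.02 (edgeR, adjusted p = 9.51e-05), and with doxycycline the SH2 to control ratio was 1133, with a 95% interval of 313 to 9355, against 2 control reads (adjusted p = 7.87e-05). The untreated IGLC3 value rests on which control library is kept: it was 13.59 without set 2, which held all untreated control reads, and 8.10 without set 4, called both times. With doxycycline the fitted value, 10.01, was 13.14 and 9.19, likewise called; values with no control read left depend on the prior count. IGLC7, the last functional constant gene of the locus, was at 289, 258, 157 and 217 CPM in treated and 236, 211, 288 and 505 CPM in untreated SH2 libraries, and had no read in any control library. Reads were pooled over each group and set against a floor of 3 counts over the control group. By this IGLC7 was at least 432-fold higher in SH2 cells with doxycycline (edgeR, adjusted p = 9.36e-06) and at least 512-fold higher without (adjusted p = 9.54e-06). IGLC6, annotated as a constant pseudogene, was at 84.2, 79.7, 60.3 and 6.40 CPM in treated and 54.5, 52.5, 76.1 and 108 CPM in untreated SH2 libraries, and a single read was found among the controls. With reads pooled over each group, it was at least 106-fold higher in SH2 cells with doxycycline (edgeR, adjusted p = 0.00149). The pooled ratio without doxycycline was 361, with a 95% interval of 64.6 to 14262 (edgeR, adjusted p = 0.00207). The fitted IGLC6 value without doxycycline, 8.20, was 7.49 without control set 2 and 10.69 without control set 4, called both times. The pseudogenes IGLC5 and IGLC4 had 24 and 7 reads in SH2 libraries and 2 and 0 in control libraries.

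The SH2 libraries differed among themselves in which lambda constant gene was read. IGLC2 made up 64.8, 70.3, 61.6 and 74.4% of the IGLC2 and IGLC3 reads in treated SH2 libraries of sets 1 to 4. In untreated ones it made up 70.9, 74.2, 61.3 and 3.87%. The untreated library of set 4 stood alone, with 86 IGLC2 reads beside 2134 IGLC3 reads (share of IGLC2, exact binomial 95% interval 3.11% to 4.76%), while the treated library of the same set had the highest IGLC2 share of the treated ones. IGLC7 made up 17.7, 10.8, 11.5 and 31.4% of lambda constant reads in treated SH2 libraries and 16.8, 8.83, 14.7 and 39.3% in untreated ones. Both set 4 libraries were above all others in this share. IGLC6 was lowest at 0.928% in the treated and highest at 8.43% in the untreated library of set 4, with 2.19% to 5.18% in the other 6.

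**Figure D3:**
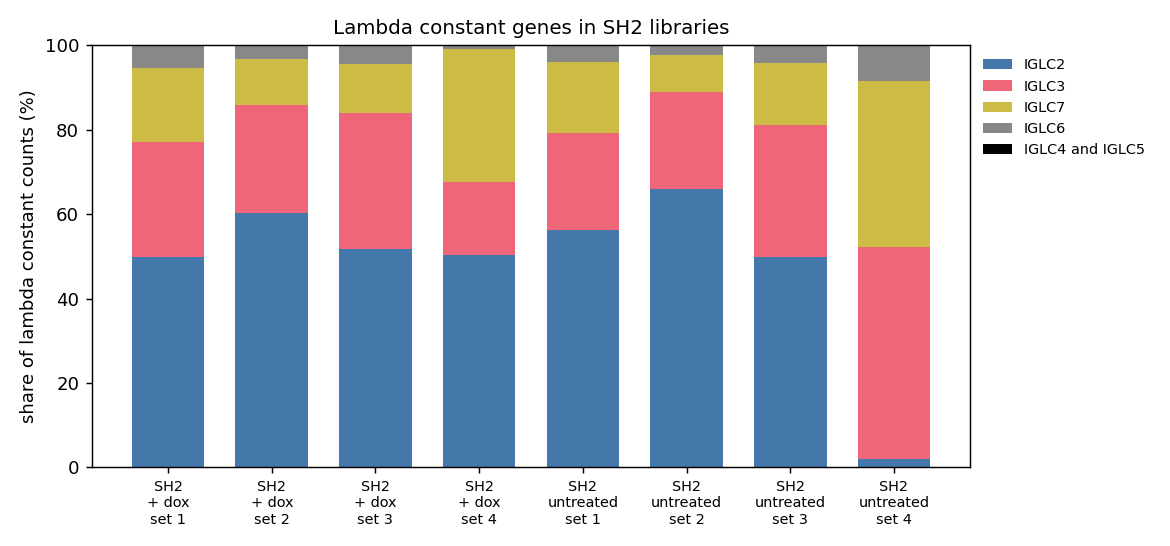
Share of the reads of each lambda constant gene among all lambda constant reads (y axis, percent) in the 4 treated and 4 untreated SH2 libraries. IGLC2 is the largest part in every library but untreated set 4, where IGLC3 and IGLC7 make up most reads.

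IGLL5 (chr22:22887780-22896107, plus strand), a gene at the lambda locus that resembles the surrogate light chain gene IGLL1 and needs no rearrangement, overlaps IGLC1. It was at 11.7, 17.1, 6.26 and 4.38 CPM in treated and 8.61, 17.2, 18.5 and 14.8 CPM in untreated SH2 libraries, against 0.320 and 0 CPM in treated and 1.42 and 4.70 CPM in untreated control libraries. SH2 and control libraries did not overlap within either treatment, and the share of all genes of which this holds was not counted. With doxycycline the SH2 to control ratio was 54.7, with a 95% interval of 9.60 to 2179, on a single control read (edgeR, adjusted p = 0.00310). Without it the log2 difference was 2.22 ± 0.68 and did not pass the threshold (adjusted p = 0.0619). The fitted value with doxycycline, 5.50, was 7.78 without the treated control library of set 2 and 4.75 without that of set 4, called both times. Without the treated SH2 library of set 4 the untreated difference was called (edgeR, adjusted p = 0.0335). Of its windows of 50 bases, 35.4% occur in other immunoglobulin transcripts, so its counts are uncertain too.

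The segment genes are shown by the end of the V segment or by the whole J segment, because they mark which segments were read in which cells. IGLV6-57 (chr22:22196217-22196276) and IGLV2-14 (chr22:22759159-22759218) are shown by the last 60 bases of the annotated gene, with their last in-frame cysteine codon in capitals, and IGLJ7 (chr22:22921390-22921435) whole, with its phenylalanine and glycine codons in capitals; all lie on the plus strand.
IGLV6-57: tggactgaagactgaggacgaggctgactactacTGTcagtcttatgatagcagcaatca
IGLV2-14: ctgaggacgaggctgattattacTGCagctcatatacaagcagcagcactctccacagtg
IGLJ7: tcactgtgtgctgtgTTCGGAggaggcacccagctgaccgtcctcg

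Variable and joining genes together took 0.386% to 0.806% of the immunoglobulin reads in SH2 libraries and 2.59% to 4.90% in control libraries, and the members include no diversity and no heavy joining gene. In control libraries nearly all of them fell in IGLV6-57, a lambda variable gene. IGLV6-57 was at 8.38, 3.80, 2.31 and 3.37 CPM in treated and 4.51, 6.52, 4.53 and 6.64 CPM in untreated SH2 libraries, against 120.5 and 175 CPM in treated and 218 and 67.6 CPM in untreated control libraries. All SH2 libraries were below all control libraries, and none was at 0. IGLV6-57 was called lower in SH2 cells, with a log2 difference of -5.07 ± 0.49 with doxycycline (edgeR, adjusted p = 2.45e-05) and -4.66 ± 0.47 without (adjusted p = 4.16e-05). Without doxycycline the value was -3.59 without control set 2 and -5.27 without control set 4, called both times. It made up 24.4% to 100% of variable gene reads in SH2 libraries, the 100% being 10 of 10 reads in the treated library of set 4, and 97.4% to 99.8% in control libraries. The control cells had reads of a lambda variable gene together with 13379 reads of the kappa constant gene and 19 of the lambda constant genes.

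The other lambda segments were read almost solely in SH2 cells. The 13 lambda variable genes other than IGLV6-57 had 156 reads in SH2 and 4 in control libraries, and the 3 lambda joining genes had 136 and 0. IGLV2-14 had 8, 21, 12 and 0 reads in treated and 10, 22, 19 and 13 reads in untreated SH2 libraries, and none in control libraries. With reads pooled over each group, it was at least 7.11-fold higher in SH2 cells with doxycycline and at least 8.51-fold higher without. The treated SH2 library of set 4, with 0 reads, does not reach this bound. In the test over libraries IGLV2-14 was just outside the threshold (edgeR, adjusted p = 0.050 and 0.0530). With the set as a block it was called in both (edgeR, adjusted p = 0.0365 and 0.0322). IGLJ7, the joining segment just upstream of IGLC7, had 6, 24, 9 and 12 reads in treated and 6, 10, 19 and 31 in untreated SH2 libraries, and none in control libraries. With reads pooled in the same way, it was at least 8.85-fold higher with doxycycline and at least 8.78-fold higher without (edgeR, adjusted p = 0.0130 and 0.0175). The IGLJ7 calls were lost when either control library of the group compared was left out: the adjusted p was 0.0878 and 0.0821 with doxycycline (without set 2 and set 4), and 0.116 and 0.115 without (edgeR). Without both control libraries of set 2 it was 0.0908 with and 0.116 without doxycycline.

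Of the segments too low to test, IGLV3-10 had 29 reads, IGLJ6 18 and IGLV2-11 11, all in SH2 libraries. Of the windows of 50 bases of IGLV2-14, 51.8% occur in IGLV2-11 or other genes of its family, so these counts are uncertain. The 10 other lambda variable genes of the rule had 1 or 2 reads each, and IGLJ5 had 1.

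**Figure D4:**
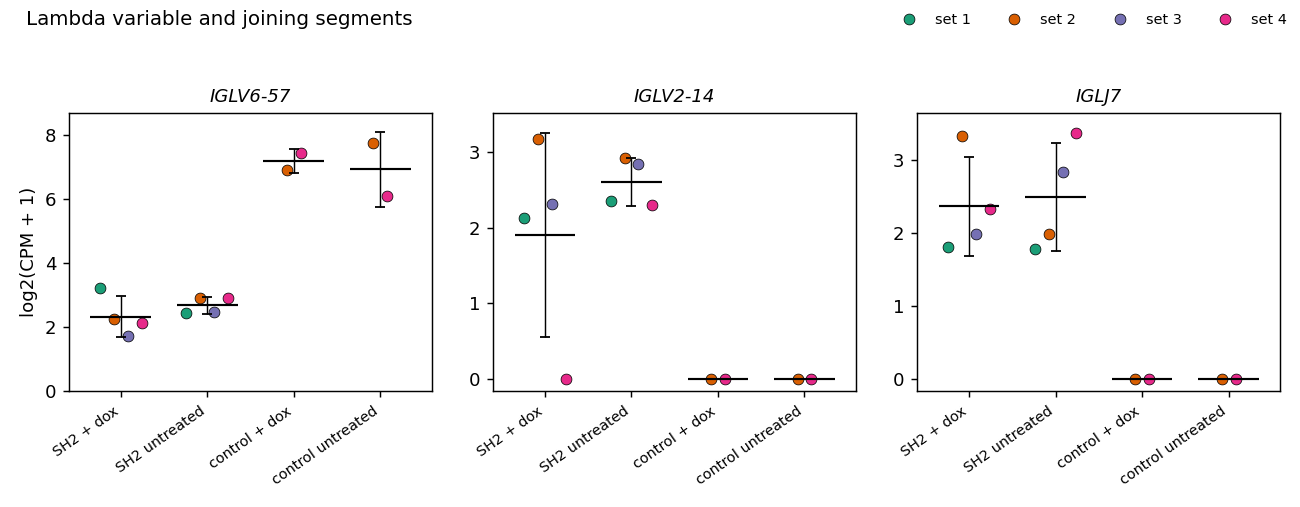
Log2(CPM + 1) per library (points, coloured by set) of 3 lambda segments in treated SH2, untreated SH2, treated control and untreated control libraries; lines are means and bars SDs (n = 4, 4, 2 and 2). IGLV6-57 is lower in all SH2 libraries than in any control library, while IGLV2-14 and IGLJ7 are at 0 in all control libraries.

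Heavy chain constant genes were read in both kinds of cell, and IGHM, the constant gene of IgM (chr14:105851705-105856218, minus strand), carried 91.2% to 99.4% of their reads in SH2 and 93.0% to 97.3% in control libraries. IGHM was at 1489.8, 2434, 1626 and 1137 CPM in treated and 1175, 2278, 1253 and 1745 CPM in untreated SH2 libraries. In control libraries it was at 1755 and 1943 CPM with doxycycline and 2880.5 and 1031 CPM without. The 4 groups overlapped: mean levels were 1672 ± 548 CPM (SD, n = 4) in treated SH2, 1613 ± 510.4 (n = 4) in untreated SH2, 1849 ± 134 (n = 2) in treated control and 1956 ± 1308 CPM (n = 2) in untreated control libraries. The SH2 against control difference was -0.15 ± 0.42 with doxycycline and -0.28 ± 0.42 without (edgeR, log2, adjusted p = 0.871 and 0.792). Without the control libraries of set 2 the untreated value turned to 0.65; the untreated control libraries of sets 2 and 4 lay above and below the SH2 mean.

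IGHD (chr14:105836765-105845678, minus strand), the constant gene of IgD, which is made from the same primary transcript as IGHM, ranged widely among SH2 libraries. It was at 54.0, 24.7, 12.2 and 0.674 CPM in treated and 80.3, 40.0, 26.6 and 17.8 CPM in untreated SH2 libraries, against 12.2 and 13.8 CPM in treated and 13.8 and 23.9 CPM in untreated control libraries. Set 1 was highest and set 4 lowest in both SH2 groups, and the differences from control cells did not pass the threshold (edgeR, log2 0.81 ± 0.94 and 1.11 ± 0.94, adjusted p = 0.650 and 0.587, with and without doxycycline). IGHD took 0.0589% to 6.23% of heavy constant reads in SH2 and 0.465% to 2.15% in control libraries.

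IGHG1 (chr14:105736343-105743071, minus strand), of the IgG class, was at 19.7, 49.0, 32.6 and 5.39 CPM in treated and 22.9, 67.3, 38.2 and 15.7 CPM in untreated SH2 libraries, against 49.99 and 64.2 CPM in treated and 65.0 and 49.2 CPM in untreated control libraries. The treated groups lay just apart, with the highest SH2 library at 49.0 and the lowest control library at 49.99 CPM. The untreated groups overlapped, and neither difference passed (edgeR, log2 -1.10 ± 0.63 with and -0.66 ± 0.64 without doxycycline, adjusted p = 0.308 and 0.646). IGHA2 (chr14:105583731-105588395, minus strand), of the IgA class, was at 1.01 to 15.2 CPM in treated and 3.32 to 18.1 CPM in untreated SH2 libraries, against 0.641 and 3.06 CPM in treated and 0.949 and 3.62 CPM in untreated control libraries. Its log2 differences were 2.10 ± 0.99 and 2.22 ± 0.97 (edgeR, adjusted p = 0.206 and 0.210, with and without doxycycline). Leaving out both SH2 libraries of set 4, an alternative chosen after seeing the data, brought IGHA2 past the threshold with doxycycline (adjusted p = 0.0390) and without (adjusted p = 0.0397), as did testing with no filter on low counts (adjusted p = 0.0412 and 0.0232). The remaining heavy constant genes were near 0: IGHA1 had 16 reads in SH2 and 1 in control libraries, IGHG4 7 and 3, IGHG2 2 and 0, and IGHGP 0 and 1. IGHG3 and IGHE had none. Of the windows of 50 bases, 54.4% of IGHG1 and 32.3% of IGHA2 occur in other genes of their class, so reads among these classes are uncertain.

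**Figure D5:**
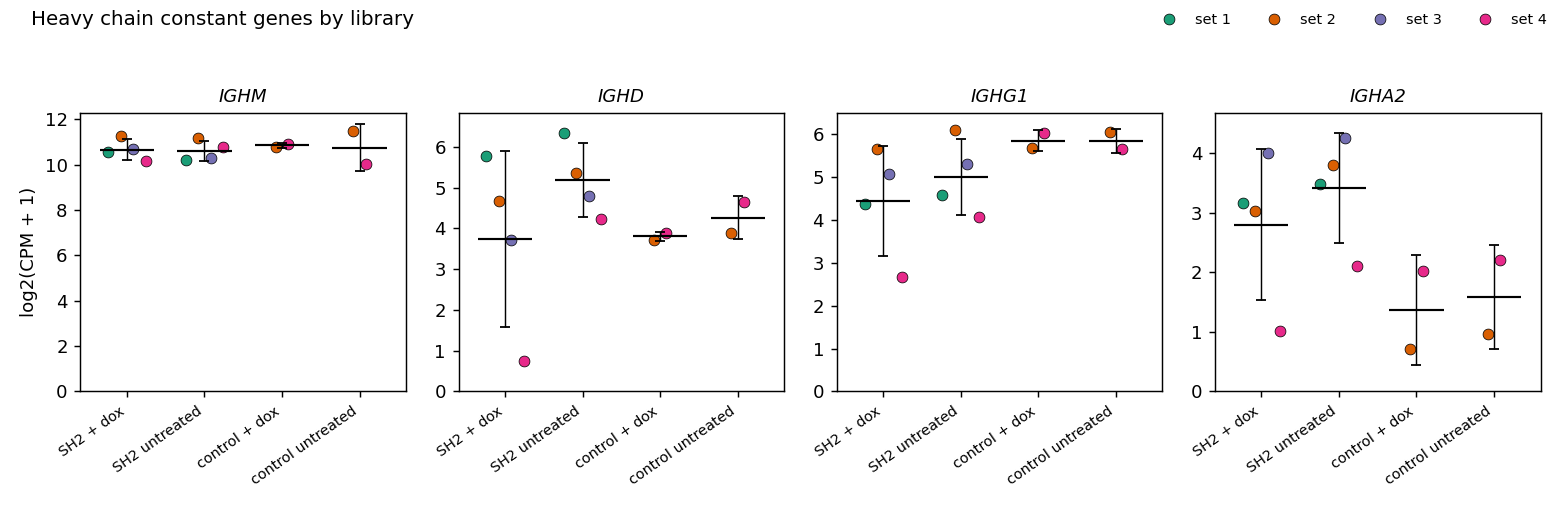
Log2(CPM + 1) per library (points, coloured by set) of 4 heavy chain constant genes in treated SH2, untreated SH2, treated control and untreated control libraries; lines are means and bars SDs (n = 4, 4, 2 and 2). IGHM overlaps among all groups, IGHD spans the widest range in treated SH2 libraries, and the set 4 library is the lowest treated SH2 point in each panel.

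Heavy variable genes had 20 reads in SH2 and 10 in control libraries, over 6 genes. IGHV3-74 had 12 reads, all in SH2 cells and in 7 of the 8 libraries, and IGHV2-26 had 6 reads in SH2 and 1 in control libraries. IGHV1-69-2 had 6 reads and the orphons IGHV1OR15-1 on chromosome 15 and IGKV2OR22-3 on chromosome 22 had 9 and 6, all in control cells. IGHMBP2, the helicase, was at 9.22, 18.2, 16.5 and 33.0 CPM in treated and 11.9, 13.0, 11.3 and 10.6 CPM in untreated SH2 libraries, against 6.09 and 5.73 CPM in treated and 15.2 and 4.34 CPM in untreated control libraries, and was not called (edgeR, adjusted p = 0.0656 with and 0.839 without doxycycline). With the set as a block it was called with doxycycline (log2 1.92, adjusted p = 0.0285).

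Doxycycline was compared with no treatment within each kind of cell. For SH2 cells the comparison holds the hairpin against IGF2BP1, doxycycline itself and the GFP sort of the treated libraries together. These cannot be told apart in it. IGF2BP1 itself was lower in each of the 4 sets but was not called (edgeR fit without the set, unadjusted p = 0.0371, adjusted p = 0.983). Of the 11968 genes tested, 584 had an unadjusted p under 0.05 in this fit. None of the 14 members tested was called in treated against untreated SH2 cells (edgeR, 0 at an unadjusted p under 0.05), where 0.0167% of the 11968 genes were called, 2 genes in all. DESeq2 also called none. IGHM differed by 0.05 ± 0.34, IGLC2 by -0.02 ± 0.73, IGLC3 by -0.40 ± 0.46, IGLC7 by -0.43 ± 0.31 and IGHD by -0.85 ± 0.73 on the log2 scale (SE). Within sets 1 to 4, treated minus untreated log2(CPM + 1) of IGHD was -0.56, -0.68, -1.06 and -3.49, lower in each of the 4 sets (edgeR, adjusted p = 0.983), and that of IGHA2 was -0.33, -0.77, -0.24 and -1.10 (adjusted p = 0.986). IGHG1 was also lower in each of the 4 sets, by -0.21, -0.45, -0.22 and -1.39 (adjusted p = 0.986), as was IGLV2-11, which had 11 reads in all. For IGLC2 it was 0.04, -0.13, -0.46 and 3.69, with set 4 far from the others. The adjusted p values of this paragraph come from the fit without the set, so they do not measure how far the 4 sets agree. With the set as a block no member was called either (edgeR). How many of all genes were lower in each of the 4 sets was not counted.

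In treated against untreated control cells no member was called (edgeR, 1 at an unadjusted p under 0.05; DESeq2 0), where 0% of all genes were called. That member was IGLL5 (log2 -3.88 ± 1.16, unadjusted p = 0.00471, adjusted p = 1). With each library left out its value lay between -6.16 and -2.75, and without the untreated control library of set 4, which held 13 of the 16 untreated control reads, no member was below an unadjusted p of 0.05. IGKC differed by -0.23 ± 0.56 and IGLV6-57 by 0.05 ± 0.51 (edgeR, adjusted p = 1 and 1). The difference between the SH2 and control responses was called for no member either (0% of all genes; edgeR, 1 at an unadjusted p under 0.05; DESeq2 0). The member below that p was again IGLL5 (3.29 ± 1.27, adjusted p = 1). With each library left out it lay between 2.15 and 5.56, and without the treated control library of set 4 no member was below that p.

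Genes that work with the immunoglobulin loci were set beside them. Over all genes tested, 11.1% were called with doxycycline (4.6% higher, 6.48% lower) and 7.84% without (2.94% higher, 4.9% lower). These shares apply to each list count below, and among 9 genes 0 or 1 called is near them. Of the 22 listed genes called in each comparison, 15 with and 12 without doxycycline were still called without both control libraries of set 2. Of 9 recombination genes none was called in SH2 against control cells with or without doxycycline, with a median log2 difference of 0.45 and 0.50, against 0.04 and 0.03 over all genes tested. RAG1, a subunit of the recombinase that cuts the segments, was at 3.03 to 28.5 CPM in treated and 17.2 to 58.2 CPM in untreated SH2 libraries, against 7.05 and 8.79 CPM in treated and 9.02 and 21.3 CPM in untreated control libraries. DNTT, which adds bases at the joints, was at 145 to 1196 CPM in SH2 and 189.8 to 506 CPM in control libraries, and RAG2 at 0.659 to 13.8 and 3.80 to 6.51 CPM. Both kinds of cell held reads of all 3 genes, and the ranges overlapped.

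Of 9 partners of the pre-B and B-cell receptors, 0 were called with doxycycline and 1, lower, without; the median differences were -0.19 and -0.57. That gene was CD79A, a signalling chain of the receptor (log2 -1.66 ± 0.46, edgeR, adjusted p = 0.0397), at 131 to 396 CPM in SH2 and 534 to 796 CPM in control libraries. Leaving out the treated SH2 library of set 2, any of the untreated SH2 libraries of sets 1 to 3 or either untreated control library ended the CD79A call (adjusted p = 0.0540 to 0.271), as did leaving out control set 2 (adjusted p = 0.312). Its partner CD79B overlapped, at 219 to 385 and 331 to 348 CPM. The surrogate light chain genes VPREB1 and IGLL1, which pair with the heavy chain before a light chain is made, were at 41.4 to 470.1 and 34.0 to 488 CPM in SH2 and 26.1 to 219 and 69.9 to 284 CPM in control libraries. Of 9 precursor B markers tested, none was called in either comparison.

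Of 18 transcription factors of these loci, 1 was higher and 3 were lower in SH2 cells in each comparison (median log2 difference 0.18 with doxycycline and -0.01 without). Over all genes tested, 4.6% were higher and 6.48% lower with doxycycline, against 2.94% and 4.9% without. SPIB, a factor of mature B cells, had log2 differences of -5.88 ± 0.57 and -6.15 ± 0.57 with and without doxycycline, and IRF8, a factor of B-cell and myeloid development, -3.36 ± 0.40 and -3.06 ± 0.39 (edgeR, adjusted p = 2.45e-05, 2.42e-05, 0.000139 and 0.000239). FOXO1, a factor of early B cells, was higher by 2.80 ± 0.53 and 1.76 ± 0.50 (adjusted p = 0.00385 and 0.0459). The other lower gene was POU2AF1, a coactivator of immunoglobulin promoters, with doxycycline (-1.27 ± 0.34, adjusted p = 0.0288) and IKZF3 without (-3.31 ± 0.80, adjusted p = 0.0194). SPIB and IRF8 were called with each library left out and without control set 2. Without both control libraries of set 2 the FOXO1 calls ended (adjusted p = 0.0691 with and 0.414 without doxycycline), as did those of POU2AF1 (0.120) and IKZF3 (0.121). With single libraries left out, the untreated FOXO1 call ended when any 1 of the 4 control libraries, the treated SH2 library of set 2 or the untreated ones of sets 2 to 4 was left out (adjusted p = 0.0574 to 0.379), and with doxycycline without the treated control library of set 2 (0.0531). POU2AF1 was lost without either treated control library or the treated SH2 library of set 2 or 3 (adjusted p = 0.0557 to 0.183), and IKZF3 without either untreated control library or the untreated SH2 library of set 2 (0.0633 to 0.117).

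Of 7 secretion and plasma cell genes tested, SDC1, a surface proteoglycan of plasma cells, was higher in SH2 cells with and without doxycycline (log2 3.92 ± 0.90 and 4.25 ± 1.01, edgeR, adjusted p = 0.0123 and 0.0189). The SDC1 calls ended without the control library of set 4 of the comparison (adjusted p = 0.0921 and 0.159). Of 10 B-lineage markers tested, 2 were lower with doxycycline and 3 without: CD22 (-2.88 ± 0.46 and -1.75 ± 0.46) and CD72 (-2.37 ± 0.45 and -1.81 ± 0.44), both inhibitory receptors of B cells, in both comparisons, and CD79A without doxycycline. Without doxycycline the CD22 call ended without the untreated SH2 library of set 3 or 4 or either untreated control library (adjusted p = 0.0543 to 0.169), and the CD72 call without the untreated SH2 library of set 1, 2 or 3 or either untreated control library (0.0501 to 0.146). CD72 with doxycycline was lost without the treated control library of set 4 (0.0692), and both genes were lost without control set 2 when untreated (0.151 and 0.0860). PAX5, the factor that holds B-cell identity, was at 80.3 to 224 CPM in SH2 and 141 to 201 CPM in control libraries. Of 2 myeloid markers tested, CD33 was higher (3.71 ± 0.83 and 3.39 ± 0.93, adjusted p = 0.00979 and 0.0376). The CD33 call ended without control set 2 (adjusted p = 0.139 and 0.221). With doxycycline it also ended without the treated control library of set 2 (0.117), and without doxycycline when any of the treated SH2 libraries of sets 2 and 3, the untreated ones of sets 2 to 4 or the untreated control libraries was left out (0.0531 to 0.234). Of 7 mature B markers tested, 7 were lower in each comparison, with medians of -5.62 and -5.15; with single libraries left out or without control set 2, only CD27 was lost, untreated, without the untreated control library of set 2 (adjusted p = 0.117) or both of set 2 (0.143). MS4A1, which encodes CD20, was at 0 to 14.5 CPM in SH2 and 199 to 278 CPM in control libraries, and CR2, a complement receptor, at 0 to 0.302 and 75.2 to 348 CPM. FCRL1, the listed mature B marker too low to test, went the other way, at 0.410 to 2.36 CPM in SH2 and 0 to 0.949 CPM in control libraries. Of 8 T-cell markers tested, 4 were lower with doxycycline and 3 without, led by CD3E, at 0 to 0.419 CPM in SH2, 103 and 103 CPM in control set 2 and 1.91 and 7.59 CPM in control set 4. Without both control libraries of set 2, CD3E without doxycycline was the only T-cell marker call left (adjusted p = 0.0303, against 0.189 with doxycycline), and without the set 2 library of the comparison alone none was. The CD5 call with doxycycline also ended when any of the treated SH2 libraries of sets 2 to 4 was left out (0.0620 to 0.0673). It ended as well with the set as a block (edgeR, adjusted p = 0.0719) and with DESeq2 (adjusted p = 0.240). IGKC was read in the control libraries of both sets, lowest in the treated library of set 2.

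Genes flanking the 3 loci on the chromosomes were compared in the same way, beside the same shares of all genes called (11.1% with doxycycline and 7.84% without). Of 5 tested by the heavy chain locus and 8 by the lambda locus none was called with or without doxycycline, and of 4 tested by the kappa locus 2 were lower in SH2 cells in each comparison. RPIA was at 32.9 to 57.8 CPM in SH2 and 87.1 to 149.7 CPM in control libraries (log2 -1.66 ± 0.29 and -1.21 ± 0.29, edgeR, adjusted p = 0.00195 and 0.0181). Its untreated call ended without the untreated control library of set 2 (adjusted p = 0.340) or both of set 2 (0.372). ANKRD36BP2, a pseudogene, was at 0.324 to 2.93 and 10.3 to 29.6 CPM (log2 -3.78 ± 0.70 and -4.32 ± 0.72, adjusted p = 0.00329 and 0.00178), and its call with doxycycline ended without the treated control library of set 4 (0.0722).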

How the data were processed

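The authors deposited a table of raw counts for each library, whole reads per gene, without normalization, for 64253 gene IDs. Its last 5 lines are HTSeq totals of reads that no gene received and stayed out of every fit: reads aligned to several places made up 42.2% to 63.8% of all reads, no feature 3.25% to 7.73% and ambiguous reads 1.11% to 1.62%. Per the submitters' processing notes, FastQC, STAR, HTSeq, DESeq2 and hg38 (GRCh38) were used; for their versions, the annotation and the strand setting, the sources used here give none. A second deposited table, normalized signal over 26231 genes, supplied the gene names. Scaling its libraries back gave whole reads for 100% of values (tolerance 0.01), equal to the raw counts, and edgeR on those reads called 2, 938 and 1326 genes (SH2 treated against untreated, SH2 against control untreated, SH2 against control treated). It has 0 columns of other samples. Positions and sequences come from GENCODE release 29 on GRCh38, in which all 45 members were found.

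Counts were fitted in R 4.3.3 with edgeR 4.0.16, using filterByExpr by group (minimum count 10), TMM and a robust quasi-likelihood fit of the 12 libraries with a term per group and none for the set. Benjamini-Hochberg adjustment ran over 11968 genes, and called means an adjusted p under 0.05. Alternatives were DESeq2 1.42.0, its size factors, no filter, the set as a block, only the groups compared, library sizes without immunoglobulin reads and each library left out. The fit was tested on simulated data. The members and gene lists were chosen with earlier results of these data known. Named were every constant gene and IGLL5, the 15 variable or joining genes with most reads, members called, list genes called (up to 6 a list by fold) and RAG1, RAG2, DNTT, VPREB1, IGLL1, CD79A and CD79B. IGF2BP1, IGKV1-37, IGKV2-29, IGLJ5, PAX5, CD34, CD2, CD3D, CD3G, CD4, CD7, TRBC1 and FCRL1 were added after their values were seen. Some genes that this rule names are not reported here.

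By the series' design description, every set had its own sort and its own treatment. No pair of libraries of the same group agreed within sampling noise (chi-square per degree of freedom 8.39 to 47.7). Pairs from different groups were not compared in this way. The labels give the set numbers. Over genes, deviations of same-set treated and untreated SH2 libraries from their group means correlated at 0.188 to 0.663. Different-set pairs of SH2 libraries ranged from -0.548 to 0.272. The treated SH2 libraries of sets 1, 3 and 4 each correlated most with the untreated library of their own set. The treated library of set 2 correlated more with the untreated library of set 1 (0.272) than with its own (0.188). The correlations therefore bear out the pairing by set number for sets 1, 3 and 4 and not for set 2. The 2 control pairs, at 0.499 each, could not be judged. The main calls come from the fit without the set. The block is given beside a member, or beside a listed gene called in the main fit, where it changed the call.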

Additional observations from a re-analysis of the deposited data

Results flagged for a closer look

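A library was looked for that stood far from the other 3 of its group, in 52 groups of 4 values. It was found 3 times, always the untreated SH2 library of set 4 and always for the same 6 IGKC reads. Chance alone flags about 1 group in 20 where values are independent and normally distributed. Values near 0 that share reads are not, so that rate does not apply to these 3 flags, which only point to the library. IGKC was at 1.81 CPM there and at 0 to 0.297 CPM in the other 3. The kappa share of light chain reads was 0.137%, against 0% to 0.0122%, and that of light chain constant reads 0.141%, against 0% to 0.0124%. The same library had the low IGLC2 share described above. The cause was not tested.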

How the results depend on the processing

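The number of members called was within 1.5 times of the values above under each alternative run: 5 to 10 without doxycycline and 7 to 11 with it in SH2 against control cells, and 0 in the other 3 comparisons. Fewest were called without the control libraries of set 2, and most with no filter on low counts, which tests more genes. With the set as a replicate block, 10 were called with doxycycline and 8 without, adding IGLV2-14 in both (6.40, edgeR adjusted p = 0.0365, and 6.94, adjusted p = 0.0322) and IGHMBP2 with doxycycline (1.92, adjusted p = 0.0285). IGKC, IGLV6-57, IGLC3, IGLC6 and IGLC7 were called in both SH2 against control comparisons under every alternative. IGLL5 without doxycycline was called with no filter, with DESeq2, with only the groups compared and without the treated SH2 library of set 4. IGLV2-14 was also called in both comparisons without that library, without both SH2 libraries of set 4, with no filter and with DESeq2. IGHMBP2 with doxycycline was also called with no filter, with DESeq2, without the treated SH2 library of set 1 and without either untreated control library. Over all genes, 2, 938 and 1326 were called (SH2 treated against untreated, SH2 against control untreated and treated), against 6, 1505 and 2171 with the replicate block, 47, 1449 and 1879 with no filter and 14, 1237 and 1654 with DESeq2. With 1 library left out, SH2 against control counts fell furthest without the control library of set 2 or 4 of the comparison, to 343 and 490 untreated and to 737 and 645 treated; 322 and 646 were called without both control libraries of set 2, and 789 treated with only the groups compared.

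The kappa share over constant genes alone was 99.9% in treated and 99.8% in untreated control libraries, and 83.8% in treated ones per kilobase of exon.

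Some values changed sign, none of them called. With the replicate block these were IGLC2 in treated against untreated SH2 cells (0.49), and IGHM in treated against untreated control cells (0.10), in the difference of responses (-0.052) and in untreated SH2 against control cells (0.019), and IGHD in treated SH2 against control cells (-0.18). Without the SH2 libraries of set 4 these were, in treated against untreated SH2 cells, IGLC3 (0.0042) and IGLC6 (0.29), IGHG1 in control cells (-0.0017) and IGHM in treated SH2 against control cells (0.0025). Without the control libraries of set 2 they were IGHM and IGKC in treated against untreated control cells (0.92 and 0.018), and IGHM in the difference of responses (-0.87) and in untreated SH2 against control cells (0.65). With the control groups alone, IGHG1 was -0.019. With each library left out, the log2 difference of treated against untreated SH2 cells ranged over -0.19 to 0.27 for IGHM, -0.44 to 0.47 for IGLC2, -0.58 to 0.034 for IGLC6 and -0.91 to 0.052 for IGHG1. In control cells it ranged over -0.63 to 0.85 for IGHM, -0.70 to 0.13 for IGKC, -0.55 to 1.13 for IGLV6-57 and -0.18 to 0.22 for IGHG1. The difference of responses ranged over -0.80 to 0.68 for IGHM and -1.48 to 0.20 for IGLV6-57. Untreated SH2 against control cells ranged over -0.83 to 0.65 for IGHM and -0.37 to 1.42 for IGHMBP2, and treated ones over -0.38 to 0.0016 for IGHM and -0.056 to 1.21 for IGHD. The cause was not tested.

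With 2 control libraries a group, a lone remaining library is assumed to vary like the others. Depth limits the 31 members that did not pass the filter, of which 19 had 1 or 2 reads.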
